A study of Rattus norvegicus with 36 samples.

Results

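The silica response of lavage cells was set against that of blood in the same rats. RNA had been profiled with Illumina BeadChips for the rat, on which beads carry the probes, and 24 of the 36 arrays of the study were used: 12 of bronchoalveolar lavage fluid cells (BALF cells, the cells washed out of the airspaces) and 12 of blood. The silica group comprised 6 male rats of the Fisher (CDF) 344 strain that had inhaled crystalline silica on 5 days, 6 h each day, at a concentration of 15 mg/m3, and the air group comprised 6 rats of the same strain and sex kept at 0 mg/m3. Samples were taken 44 weeks after the last exposure, and the labels give an age of about 3 months for all rats without saying when it applied. Each rat gave both samples, and the rat number in the labels paired them, although the description of the blood sample of silica replicate 6 carries another replicate number. Blood RNA had been depleted of globin transcripts, whereas BALF cell RNA is not stated to have been, so that BALF cells and blood differ in preparation as well as in origin, in silica and air rats alike. A probe was a member when its detection p was under 0.05 on at least 6 of the 12 arrays of BALF cells and also of blood, which held for 7180 of 21792 probes.

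Lavage of a healthy lung recovers mostly alveolar macrophages, long-lived phagocytes that take up inhaled particles and surfactant, and that carry little of the antigen-presenting machinery of other macrophages. Blood carries neutrophils, monocytes, T and B cells, platelets and red cells. In an inflamed lung, monocytes, neutrophils and lymphocytes enter the airspaces from the blood, and recruited monocytes can mature into macrophages there. The question put to the data was whether the BALF cells of silica rats were more like blood than those of air rats.

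For each rat, the log2 level in blood was subtracted from the log2 level in BALF cells, each tissue being normalized by itself, and this value is called the difference. The change of the difference is its mean in silica rats minus its mean in air rats, so that a positive change means that BALF cells gained on blood in silica rats. The distance between BALF cells and blood, called the gap, is the mean BALF minus blood log2 value after all 24 arrays were normalized together. Levels of BALF cells and blood printed side by side come from separately normalized tables, and only the gap compares them. In these bulk samples, fewer cells of a type cannot be told apart from less RNA per cell.

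The raw signal was brighter on the BALF arrays than on the blood arrays. Its 95th percentile lay between 2172 and 2491 units in BALF cells of silica rats and between 2031 and 2901 in those of air rats, with 9537 to 9768 probes detected on an array in silica rats and 9229 to 9773 in air rats. In blood it lay between 565 and 1104 in silica rats and between 514 and 875 in air rats, with 7474 to 8861 probes detected in silica rats and 7244 to 8500 in air rats. The 3 dimmest blood arrays were those of silica replicate 6 and of air replicates 1 and 2, and the main results are also given without these 3 rats. Alveolar macrophage markers were abundant in BALF cells, where 16 of the 17 on the array were detected on at least 6 arrays, and their summed normalized signal was 79360 to 81933 in silica rats and 76778 to 85848 in air rats, against 3906 to 4211 in blood of silica rats and 3702 to 5409 in that of air rats. Red cell markers summed to 255898 to 276320 in blood of silica rats and 259400 to 277405 in that of air rats, so that both samples carried the markers of their labels.

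The overall profile of BALF cells lay closer to blood in silica rats. Over the 7180 probes, the correlation of each rat's BALF cells with the mean blood profile of the 12 rats was 0.718 at the lowest, 0.721 at the median and 0.726 at the highest in the 6 silica rats, against 0.705, 0.707 and 0.709 in the 6 air rats. The 2 groups did not overlap, and the means were 0.721 ± 0.00282 in silica rats and 0.707 ± 0.00175 in air rats (SD, n = 6 each), a difference of 0.0144 with p = 0.0021645 in a two-sided exact permutation test, the smallest p that 6 against 6 allows (adjusted over the 4 likeness measures, p = 0.00866). The shift was larger than the spread between rats but small on the scale of the correlation itself. Across the settings run, the difference in this measure was 0.0120 to 0.0354, without a change of direction, and it was 0.0137 without the 3 rats of dim blood arrays. Under a median shift the 2 groups overlapped.

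Measures that used the rat's own blood moved the same way with more spread. The correlation of a rat's BALF cells with its own blood was 0.702, 0.724 and 0.741 at the lowest, median and highest in silica rats, against 0.674, 0.707 and 0.717 in air rats. The groups overlapped, and the difference of 0.0221 had p = 0.0368 in the exact permutation test (adjusted p = 0.0736). The lowest value of each group belonged to a rat with a dim blood array, silica replicate 6 and air replicate 1. The mean absolute gap to the rat's own blood was 0.773 ± 0.0284 log2 units in silica rats and 0.799 ± 0.0313 in air rats (SD, n = 6 each), which did not pass the exact permutation test (p = 0.154, adjusted p = 0.205). For the blood samples themselves, the correlation with the mean BALF profile was 0.717 ± 0.0154 in silica rats and 0.710 ± 0.0190 in air rats (SD, n = 6 each; exact permutation p = 0.474). A rat's own pairing carried little information beyond its group: the deviation of its BALF cells from the group mean correlated with that of its blood at -0.109 to 0.118 over probes.

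**Figure D1:**
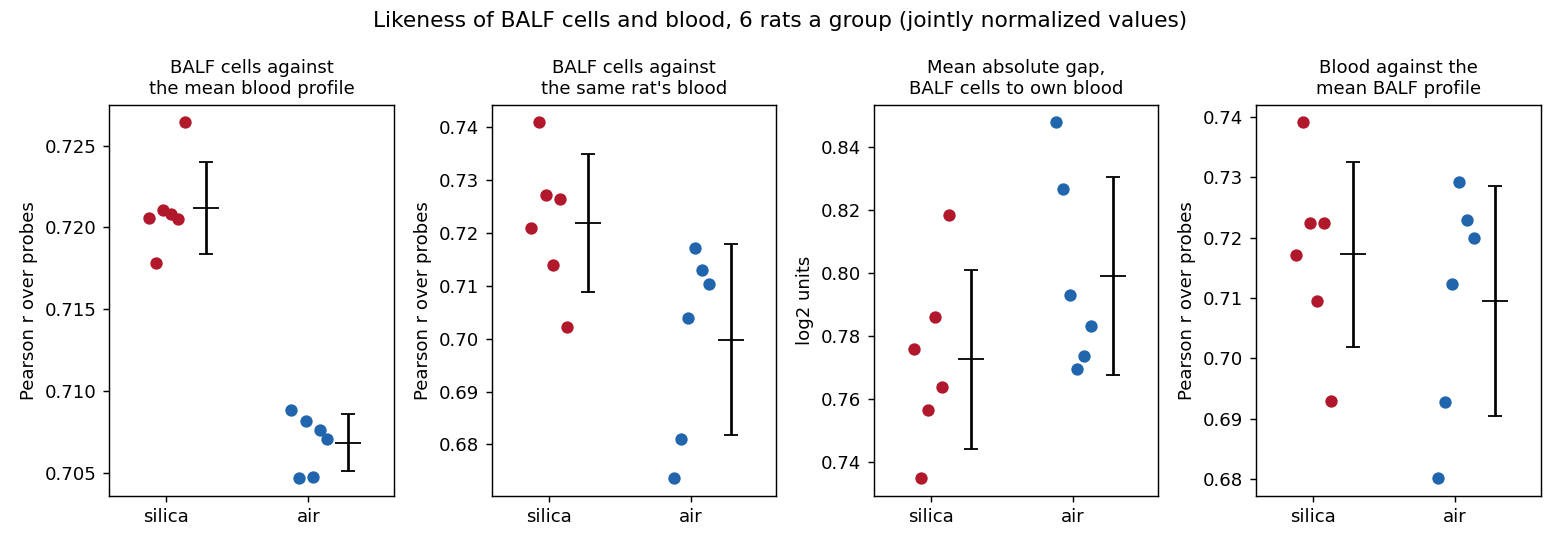
Each panel plots 1 likeness measure, with a point for each rat and the mean with its SD at the right of each group (6 silica rats at the left, 6 air rats at the right; vertical axes do not start at 0). Only the correlation of BALF cells with the mean blood profile separates the groups without overlap, at 0.718 to 0.726 in silica rats against 0.705 to 0.709 in air rats.

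Of the 7180 probes, 1620 (22.6%) had a change of the difference with an adjusted p under 0.05 in limma's moderated test. The difference was higher in silica rats for 792 (11%) and lower for 828 (11.5%), and the median change over all probes was -0.00218. Changes of at least 1.5-fold were fewer, with 126 higher and 118 lower. For 436 probes (6.07%) all 6 silica rats lay above all 6 air rats, and for 457 (6.36%) all lay below. The number called depended on the scaling: it was 54 when arrays were aligned by a median shift and not by quantiles, and 458 under a shift to the median of the detected probes, where 35.8% of the called probes were higher in place of 48.9%.

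Most of the called changes were larger on the BALF side. In 1485 of the 1620 called probes the BALF level moved more than the blood level, and in 135 the blood level moved more. Tested alone, BALF cells had 1458 probes higher in silica rats (15.2% of 9564) and 1729 lower (18.1%), whereas blood had 0 of 8044 at an adjusted p under 0.05 in limma's test and 1072 (13.3%) at an unadjusted p under 0.05. These tests use the same arrays as the difference and are not separate evidence.

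Among the called probes, the gap was smaller in silica than in air rats for 918 (56.7%) and larger for 702, and it changed sign for 211 (13%). The share with a smaller gap was near that of all tested probes, 55.3%, and 7.35% of all changed sign. The balance of called probes differed with the side of the gap. Of the 888 probes whose gap, averaged over both groups, favoured blood by at least 1 log2 unit, 115 had a higher difference in silica rats and 38 a lower one, so that BALF cells gained on blood in 75.2% of those called. As shares of the 888 these were 13% and 4.28%, against 11% and 11.5% of all probes, so that the share called higher was near that of all probes and the share called lower was below it. Some of the 888, such as Cxcr2 at 7.37 to 7.42 in BALF cells of air rats, lay near the dimmest detected BALF probes at 7.37. Such probes had little room to fall in BALF cells, and the part of this in the balance was not tested. Of the 1066 probes that BALF cells held above blood by as much, 155 were higher and 238 lower in silica rats, and 522 and 552 of the other 5226. The grouping of probes by gap was chosen after the data were seen and has no test, and without the 3 rats of dim blood arrays the counts were 115 and 41 where blood was higher, and 124 and 200 where BALF cells were higher. Under a median shift they were 5 and 1, and 9 and 21.

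**Figure D2:**
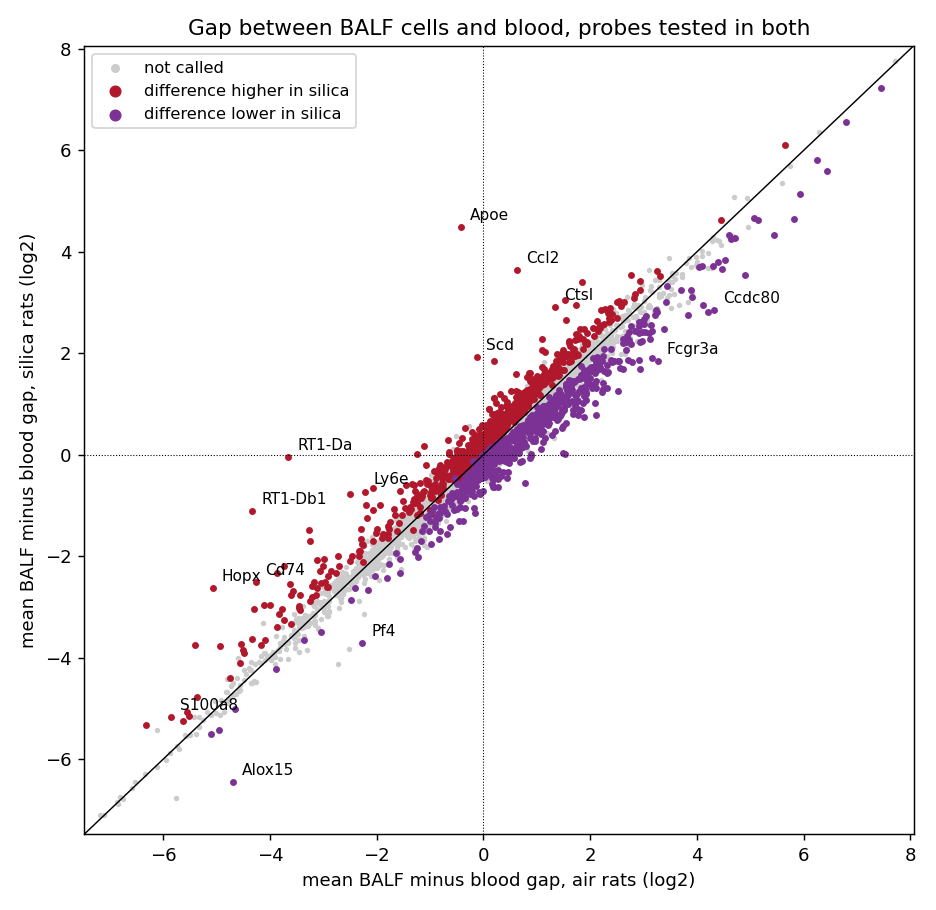
Each point is 1 of the 7180 probes, with the mean BALF minus blood gap (log2, jointly normalized) of air rats on the horizontal axis and of silica rats on the vertical axis, and the diagonal marks equal gaps. The called probes lie on both sides of the diagonal: 781 of the 792 called higher lie above it and 823 of the 828 called lower lie below it, and RT1-Da lay at -0.05 in silica rats against -3.66 in air rats, while Alox15 lay at -6.45 in silica rats against -4.69 in air rats.

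MHC class II genes showed the clearest approach to blood. These genes encode the paired alpha and beta chains that display peptides to helper T cells, and Cd74 encodes the invariant chain that guides the chains through the cell. Of the 8 tested members of the class II and antigen presentation list, the difference was higher in silica rats for 4 and lower for 0. Over all probes the shares were 11% and 11.5%. The median change was 1.09 beside -0.00218 over all probes. The 4 were RT1-Db1 (a beta chain gene), RT1-Da (an alpha chain gene, H2-Ea in the files), RT1-Ba (an alpha chain gene) and Cd74. The RT1 genes have close relatives in the rat, and a probe may also bind transcripts of these.

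The promoters of these 4 genes are shown because the genes moved together. Class II promoters are known for a conserved Y box with the letters of a reversed CCAAT element, bound by NF-Y. The 200 bases before the start of each gene follow, 5′ to 3′ on the strand of the gene, from RefSeq on GRCr8, with every ATTGG and its reverse complement CCAAT in capitals.
RT1-Da, chr20:4515215-4515414, plus strand: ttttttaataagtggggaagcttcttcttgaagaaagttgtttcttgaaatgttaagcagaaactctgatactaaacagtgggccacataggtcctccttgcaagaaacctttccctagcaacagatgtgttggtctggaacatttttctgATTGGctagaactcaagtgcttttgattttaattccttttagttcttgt
RT1-Db1, chr20:4560163-4560362, minus strand: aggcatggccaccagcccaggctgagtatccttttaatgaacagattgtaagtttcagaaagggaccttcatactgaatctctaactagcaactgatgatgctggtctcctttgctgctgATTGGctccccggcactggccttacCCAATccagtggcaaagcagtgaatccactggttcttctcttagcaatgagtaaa
RT1-Ba, chr20:4576857-4577056, plus strand: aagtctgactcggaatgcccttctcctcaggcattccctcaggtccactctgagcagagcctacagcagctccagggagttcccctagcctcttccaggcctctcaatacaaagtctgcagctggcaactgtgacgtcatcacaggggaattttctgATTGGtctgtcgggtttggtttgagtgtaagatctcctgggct
Cd74, chr18:56527006-56527205, plus strand: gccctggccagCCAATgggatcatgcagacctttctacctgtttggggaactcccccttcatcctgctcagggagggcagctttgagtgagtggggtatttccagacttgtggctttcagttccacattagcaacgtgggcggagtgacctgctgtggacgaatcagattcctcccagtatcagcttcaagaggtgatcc
The longer string CTGATTGG began 52 bases before the start in RT1-Da, 83 in RT1-Db1 and 46 in RT1-Ba, and neither it nor its reverse complement was found in the bases shown for Cd74, whose CCAAT began 189 bases before the start. Counting both strands, CTGATTGG occurred in 3.19% and ATTGG, which it contains, in 34% of 33469 RefSeq promoter windows of 250 bases. A match of letters is a description and does not show binding.

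RT1-Db1 had BALF levels of 11.06, 11.30 and 13.18 (lowest, median, highest; log2) in silica rats and 8.01, 8.17 and 8.30 in air rats, while its blood levels were 10.69, 11.27 and 11.85 in silica rats and 11.26, 11.36 and 11.68 in air rats. The BALF groups lay far apart and the blood groups overlapped. The change of the difference was 3.53 ± 0.435 (SE; limma adjusted p = 0.000225), and the gap was -1.11 in silica rats against -4.33 in air rats. RT1-Da had BALF levels of 13.05, 13.14 and 14.30 in silica rats and 9.82, 10.25 and 10.51 in air rats, with blood at 11.97, 12.78 and 13.07 in silica rats and 12.42, 12.87 and 13.14 in air rats. Its change was 3.26 ± 0.350 (limma adjusted p = 9.27e-05), and its gap was -0.05 in silica rats against -3.66 in air rats. Silica replicate 6 alone had a gap of 1.64, and the mean gap of the other 5 silica rats was -0.39, with a range of -0.58 to -0.04.

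RT1-Ba and Cd74 rose less and on average stayed below blood. RT1-Ba had BALF levels of 8.98, 9.25 and 10.86 in silica rats and 7.49, 7.54 and 7.64 in air rats, and the change was 2.004 ± 0.409 (limma adjusted p = 0.00473), with a gap of -1.70 in silica rats against -3.26 in air rats. Cd74 had BALF levels of 9.26, 9.57 and 10.93 in silica rats and 7.52, 7.59 and 7.70 in air rats, and its change was 2.25 ± 0.397 (limma adjusted p = 0.00205), with a gap of -2.51 in silica rats against -4.26 in air rats. In all 4 genes the highest BALF level and the lowest blood level among silica rats belonged to replicate 6, which also had the dimmest blood array of its group. Without that rat the changes were 3.08 for RT1-Db1, 2.92 for RT1-Da, 1.59 for RT1-Ba and 1.86 for Cd74, and all 4 passed the test. The gaps of silica rats without it, computed after the data were seen, were -1.58 for RT1-Db1, -2.08 for RT1-Ba and -2.85 for Cd74. Under a median shift RT1-Db1 and RT1-Da passed (adjusted p = 0.0232 and 0.0119) and RT1-Ba and Cd74 did not (adjusted p = 0.277 and 0.163).

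The other class II list members did not follow. Ctss and Lgmn, lysosomal proteases that trim the invariant chain, Ifi30, a thiol reductase of the same pathway, and RT1-DOa, a class II-like modulator of peptide loading, had changes of -0.24, 0.05, 0.18 and 0.02, none of which passed. Of the 15 tested class I and peptide loading genes, which act in nearly all nucleated cells, 0 were called higher and 0 lower, with a median change of -0.03, although 2 were called lower without the 3 rats of dim blood arrays. B cells also carry class II, and of their 15 markers on the array 8 were detected on no BALF array. The B and plasma cell sum was 10974 to 13402 in BALF cells of silica rats and 11840 to 13418 in those of air rats. In blood, which carries B cells, it was only 5845 to 7790 in silica rats and 6565 to 7627 in air rats. With 5 of the 15 markers detected on at least 6 BALF arrays, the sum cannot show whether B cells changed. The part of B cells in the class II changes was not tested.

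**Figure D3:**
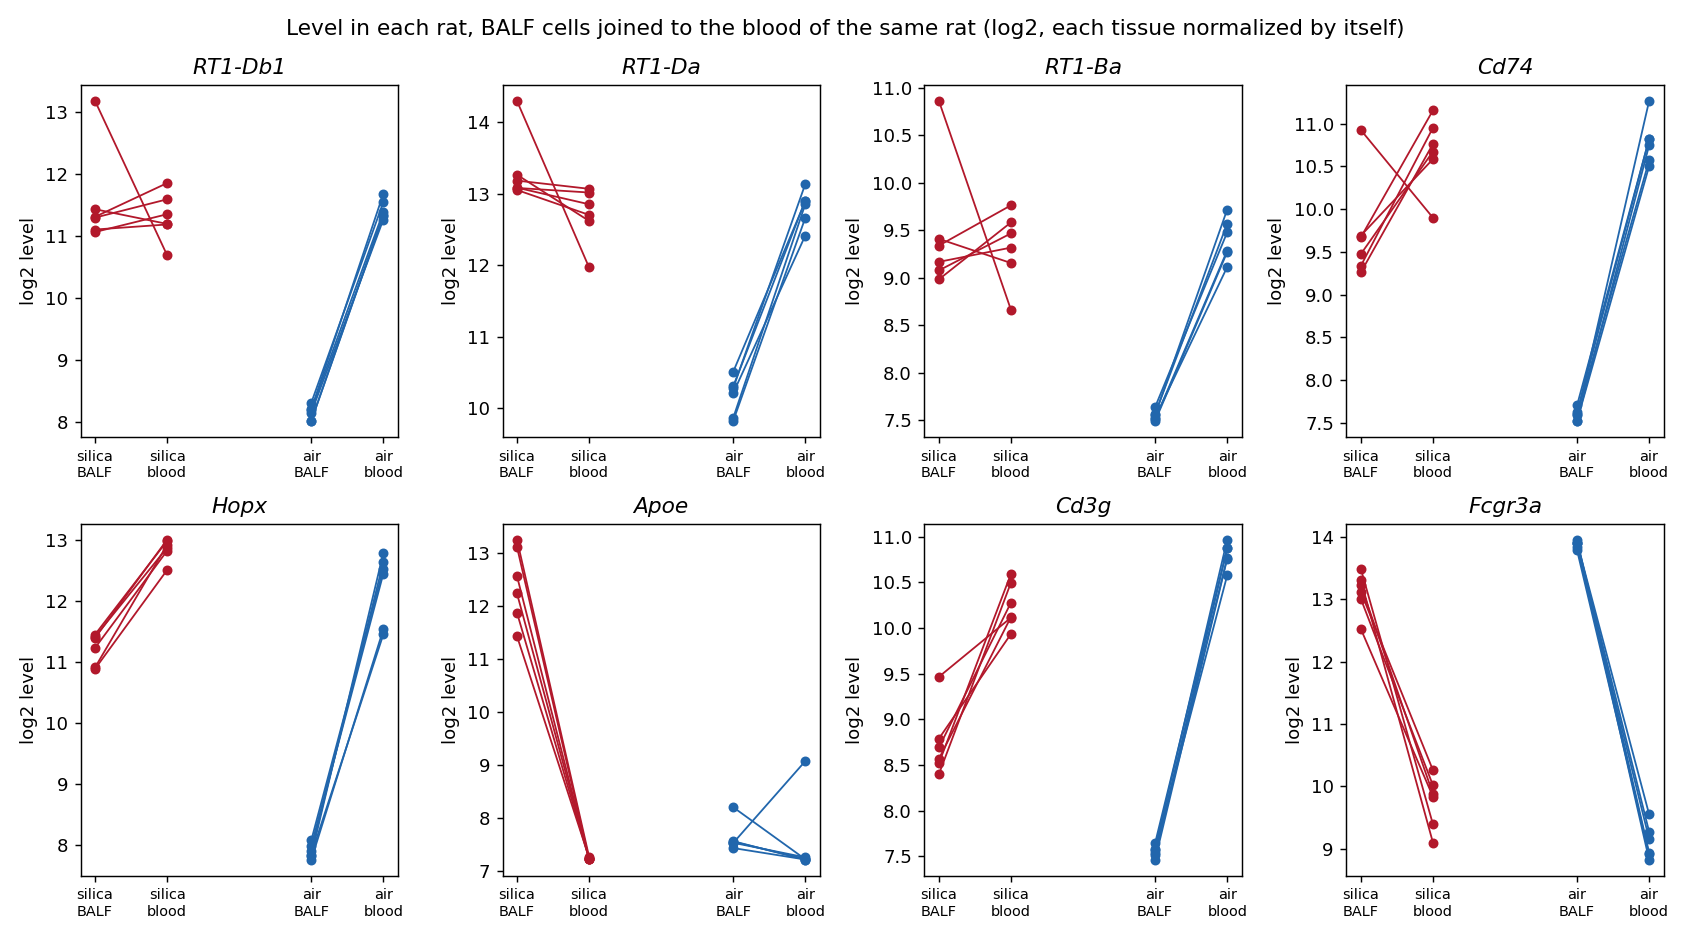
Lines join the BALF and blood log2 levels of the same rat (each tissue normalized by itself, so that heights compare rats within a tissue), 6 silica rats at the left and 6 air rats at the right of each panel. In the class II panels the silica rat that stands apart is replicate 6, with RT1-Db1 at 13.18 in BALF cells and 10.69 in blood. Cd3g was higher in BALF cells of silica rats, and its lower blood values did not pass in blood alone.

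Genes of the T cell receptor complex gained on blood, with higher BALF values and blood values that were lower without passing in blood alone. Of the 20 tested members of the T and NK cell list, the difference was higher in silica rats for 12 and lower for 0, against 11% higher and 11.5% lower over all probes, and the median change was 0.20. In BALF cells of air rats, Tcf7 lay at 7.35 to 7.40 and Cxcr3 at 7.355 to 7.375, near the dimmest detected BALF probes at 7.37. Such members had little room to fall in BALF cells, which limits the comparison of these counts with all probes. Cd3g, a chain of the T cell receptor complex, had BALF levels of 8.40, 8.63 and 9.46 in silica rats and 7.46, 7.55 and 7.64 in air rats, with blood at 9.93, 10.20 and 10.59 in silica rats and 10.57, 10.82 and 10.97 in air rats. Its BALF groups did not overlap, and the blood ranges met only near 10.6. The change was 1.73 ± 0.220 (limma adjusted p = 0.000278), made up of 1.19 in BALF cells and -0.55 in blood. Cd3d, another CD3 chain, changed by 1.02, with 0.48 in BALF cells and -0.55 in blood.

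Ccr7, the receptor that guides naive T cells and dendritic cells to lymph nodes, changed by 1.21 ± 0.179 (limma adjusted p = 0.000679), with 0.63 in BALF cells and -0.59 in blood. Lat and Lck, which relay the signal of the T cell receptor, changed by 0.93 and 0.48. Tcf7, a transcription factor of T cells, changed by 0.76, of which 0.22 was in BALF cells and -0.54 in blood. None of the blood changes passed an adjusted p in blood alone. The 8 members that did not pass came from T cells and from cytotoxic and NK cells alike. Cd4 and Cd8a, the T cell coreceptors, had changes of -0.07 and -0.09, with -0.06 and -0.16 in BALF cells, and Zap70, a kinase of the T cell receptor, had 0.17. Among cytotoxic and NK genes, Nkg7 had -0.52, Gzmk -0.37, Prf1 -0.28, Klrb1a -0.17 and Klrd1 0.00.

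The T and NK cell marker sum was 4906 to 5744 in BALF cells of silica rats and 4631 to 4779 in those of air rats, without overlap, and in blood it was 30138 to 41115 in silica rats and 30749 to 40296 in air rats. In BALF cells 22 of the 28 markers on the array were detected on at least 6 arrays and 3 on none. The T cell calls depended on the scaling: under a median shift 0 of the 20 were called, under a shift to the median of detected probes 2, and without the 3 rats of dim blood arrays 10 higher and 1 lower. Ccr6, a chemokine receptor of B cells and some T cells, was among the 5 probes of smallest p in blood and changed by 0.79 ± 0.0953, with 0.31 in BALF cells and -0.48 in blood.

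Ligands and receptors of leukocyte traffic were both represented. Ccl2, the chemokine that draws monocytes by way of Ccr2, had BALF levels of 10.90, 11.83 and 12.44 in silica rats and 8.19, 8.76 and 8.82 in air rats. The groups were far apart, and blood stayed at 7.26 to 7.34 in silica rats and 7.24 to 7.32 in air rats, near the dimmest detected blood probes at 7.17 to 7.19. The change was 3.18 ± 0.241 (limma adjusted p = 1.57e-05), and the gap widened to 3.64 in silica rats against 0.63 in air rats. Ccl2 thus moved away from blood while class II genes moved toward it. Cxcl1, a neutrophil chemokine, went the other way, with BALF levels of 8.03, 8.12 and 8.43 in silica rats and 9.10, 9.29 and 9.65 in air rats and a change of -1.13 ± 0.0937 (limma adjusted p = 1.96e-05). Of the 8 tested chemokine ligands, 2 were called higher, Ccl2 and Ccl17, and 1 lower, Cxcl1. All probes had 11% called higher and 11.5% lower, and under a median shift the counts of the ligands were 2 and 1.

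Of the 12 tested chemokine and chemoattractant receptors, 6 were called higher and 0 lower, against 11% and 11.5% of all probes. Ccrl2, an atypical receptor that binds chemerin, had BALF levels of 9.27, 9.55 and 9.92 in silica rats and 7.89, 7.95 and 8.10 in air rats and changed by 1.32 ± 0.0840 (limma adjusted p = 7.56e-06). Cxcr4, the receptor of Cxcl12, changed by 0.74. Ccr7, Ccr6 and Cxcr3 were also among the called receptors, Cxcr3 at 7.355 to 7.375 in BALF cells of air rats. Ccr2 itself stayed at 7.45 to 7.49 in BALF cells of silica rats and 7.44 to 7.47 in those of air rats, near the dimmest detected BALF probes at 7.37, and its change of 0.01 did not pass. Under a median shift 0 of the 12 receptors were called, and 3 under a shift to the median of detected probes.

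**Figure D4:**
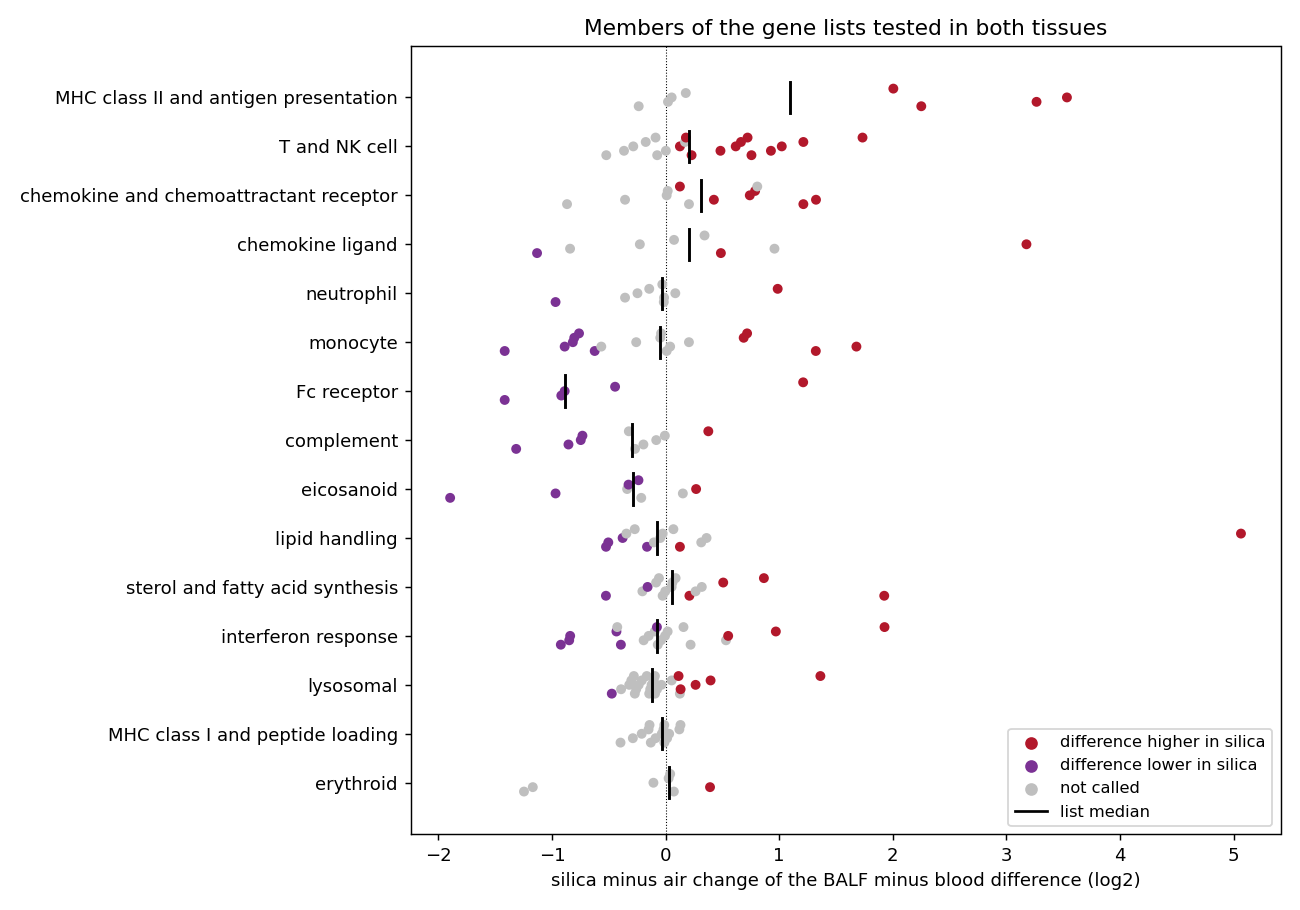
Points are the members of 15 gene lists tested in both tissues, placed by the change of the BALF minus blood difference (silica minus air, log2), with black bars at the list medians. The class II median stands at 1.09 and that of the Fc receptors at -0.89, while the class I median is -0.03.

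Monocyte and neutrophil genes did not move as a block. Of the 17 tested monocyte markers 4 were called higher and 6 lower, against 11% and 11.5% of all probes, with a median of -0.05. The 6 lower were Fcgr3a (-1.42), Fcgr1a (-0.89), Clec4a3 (-0.82), S100a4 (-0.80), Fcna (-0.76) and Cd44 (-0.62). The monocyte marker sum in BALF cells was 31993 to 38710 in silica rats and 39666 to 41617 in air rats, without overlap. Ly6c, a surface antigen of inflammatory monocytes in the mouse, had BALF levels of 8.77, 9.13 and 9.40 in silica rats and 7.39, 7.43 and 7.46 in air rats. The change was 1.32 ± 0.229 (limma adjusted p = 0.00187), with blood 0.31 higher without passing. Cd14, the co-receptor for bacterial lipopolysaccharide, changed by 1.68 ± 0.132 (limma adjusted p = 1.81e-05), with BALF levels of 11.77, 11.87 and 11.93 in silica rats and 9.55, 10.06 and 10.72 in air rats, and its gap widened to 3.41 in silica rats against 1.84 in air rats. Plac8, a marker of blood monocytes, changed by 0.72, and Itgam, the integrin of Mac-1, by 0.69. The gap of Itgam was 0.04 in silica rats against -0.30 in air rats.

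S100a8, a calcium-binding protein abundant in neutrophils and monocytes, had BALF levels of 8.28, 8.89 and 9.46 in silica rats and 7.40, 7.44 and 7.96 in air rats, and blood levels of 12.96, 13.39 and 13.56 in silica rats and 12.20, 13.06 and 13.34 in air rats. The BALF groups did not overlap, and the change was 0.99 ± 0.186 (limma adjusted p = 0.00305). The gap nonetheless remained at -5.17 in silica rats against -5.85 in air rats. Of the 9 tested neutrophil markers 1 was called higher, S100a8, and 1 lower, Alox5ap, near the shares of all probes, 11% and 11.5%. Of the 22 neutrophil markers on the array 7 were detected on no BALF array. In BALF cells alone 5 of the 9 were called higher and 1 lower, against 15.2% and 18.1% of all probes tested there. Among these 5, Cxcr2, Mmp8 and Mmp9 lay at 7.36 to 7.42 in air rats, near the dimmest detected BALF probes at 7.37. Such members had little room to fall, which limits the comparison of this count with all probes. The sum over all neutrophil markers on the array was 12785 to 14185 in BALF cells of silica rats and 15687 to 18825 in those of air rats.

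Cxcr2, the neutrophil receptor of Cxcl1, was detected in BALF cells of 6 silica rats and 1 air rat, so that it met the detection rule there mainly through silica rats. Its BALF levels were 7.66, 7.70 and 7.83 in silica rats and 7.37, 7.37 and 7.42 in air rats, and its gap was -2.88 in silica rats and -2.34 in air rats. The BALF change of 0.35 passed the test in BALF cells alone, whereas the blood change was 0.71. The change of the difference was therefore -0.36, which did not pass (limma adjusted p = 0.329). Without background correction it was 0.71 and passed (limma adjusted p = 0.0327), so that its direction depended on how dim signals were treated.

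Receptors for antibody mostly had a lower difference in silica rats. Their median gap was 1.84 in silica rats against 3.27 in air rats, and 3 of the 5 gaps were smaller in silica rats. Of the 5 tested Fc receptor genes 1 was called higher and 4 lower, against 11% and 11.5% of all probes. Their median change was -0.89, and under a median shift 0 and 1 were called. Fcgr3a, a low-affinity IgG receptor of macrophages and NK cells, had BALF levels of 12.53, 13.17 and 13.49 in silica rats and 13.79, 13.91 and 13.96 in air rats, with blood at 9.10, 9.86 and 10.26 in silica rats and 8.82, 9.05 and 9.55 in air rats. BALF cells were lower without overlap and blood tended higher with overlap, and the change was -1.42 ± 0.270 (limma adjusted p = 0.00324). Its gap was 1.84 in silica rats against 3.27 in air rats. Fcgrt, the neonatal Fc receptor that recycles IgG, changed by -0.92 ± 0.0881 (limma adjusted p = 4.27e-05), nearly all of it in BALF cells at -0.95. Fcgr1a, the high-affinity IgG receptor, changed by -0.89 with -0.06 in BALF cells and 0.82 in blood. Fcgr2b, the inhibitory IgG receptor, was the member that rose, by 1.21 ± 0.116 (limma adjusted p = 4.27e-05), with BALF levels of 8.99, 9.14 and 9.67 in silica rats and 7.83, 7.94 and 8.20 in air rats. Fc receptors are a gene family of similar sequence, and cross-binding of their probes was not tested.

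Of 10 tested complement genes 1 was called higher and 4 lower, against 11% and 11.5% of all probes. Cfd, the protease factor D of the alternative pathway, had BALF levels of 12.02, 12.30 and 12.65 in silica rats and 12.64, 12.85 and 13.11 in air rats, with blood at 9.61, 9.87 and 10.20 in silica rats and 8.03, 9.38 and 9.82 in air rats. The change was -1.32 ± 0.315 (limma adjusted p = 0.0112), and the 2 lowest blood levels belonged to air replicates 1 and 2, whose blood arrays were dim. C2, of the classical pathway, had BALF levels of 14.63 to 14.75 in silica rats and 14.64 to 14.74 in air rats, so that its change of -0.85 ± 0.233 (limma adjusted p = 0.0212) came from blood, where it was 0.86 higher, and without the 3 rats of dim blood arrays it did not pass (adjusted p = 0.0711). Cd55, which shields host cells from complement, changed by -0.75, of which -0.73 was in BALF cells. Without those 3 rats 0 complement genes were higher and 2 lower, and under a median shift 0 and 1.

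Interferon response genes changed in both directions. Of 20 tested, 3 were called higher and 6 lower, against 11% and 11.5% of all probes, with a median change of -0.07. Slfn3, a schlafen gene of lymphoid cells, had BALF levels of 10.42, 10.64 and 10.81 in silica rats and 7.68, 7.75 and 8.42 in air rats, and a change of 1.93 ± 0.336 (limma adjusted p = 0.00194), although blood was also higher, by 0.84. Ubd, a ubiquitin-like modifier induced by interferon gamma, changed by 0.97, with silica replicate 6 again the highest at 9.77. Ifi47, an interferon-induced GTPase, changed by -0.92 with -0.23 in BALF cells and 0.69 in blood, and Gbp2 and Oasl2 changed by -0.85 and -0.84 with BALF changes of 0.07 and -0.03. For these 3 genes the call therefore came mainly from higher blood values, and no gene was called in blood alone. Under a median shift 0 of the 20 were called, 3 higher and 1 lower when arrays were aligned on the median of detected probes, and without the 3 rats of dim blood arrays 3 and 3.

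**Figure D5:**
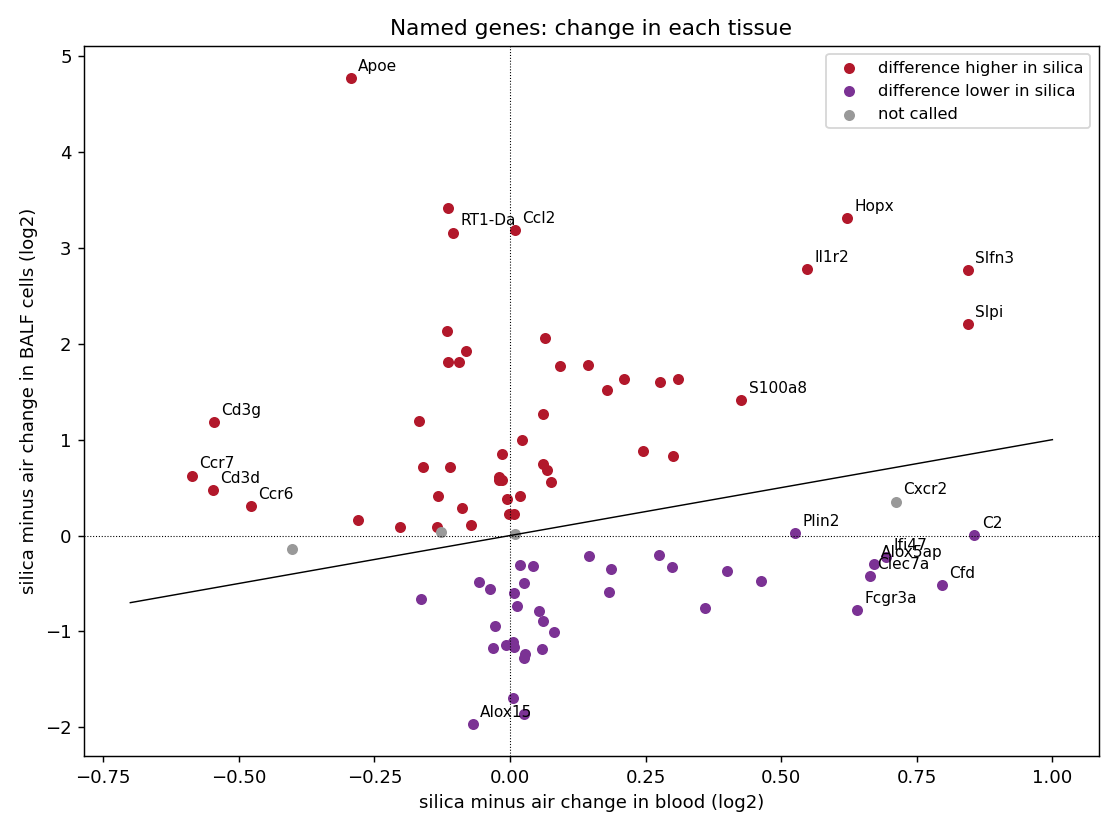
Each point is a named gene, with the silica minus air change in blood on the horizontal axis and in BALF cells on the vertical axis (log2); points above the diagonal line had a higher difference in silica rats. Apoe, RT1-Da and Ccl2 changed in BALF cells with blood near 0, Cd3g, Cd3d and Ccr7 lie at the left with lower blood values, and C2, Cfd and Alox5ap lie at the right with higher ones.

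Lipid genes held the largest single change. Apoe, the apolipoprotein by which macrophages export cholesterol, had BALF levels of 11.43, 12.39 and 13.24 in silica rats and 7.43, 7.54 and 8.20 in air rats. In blood it was 7.22 to 7.27 in silica rats and 7.21 to 9.07 in air rats, the highest being air replicate 4 while the others lay near the dimmest detected probes. The change was 5.06 ± 0.425 (limma adjusted p = 2.01e-05), and the gap was 4.49 in silica rats against -0.42 in air rats, so that BALF cells carried it far above blood in silica rats and near blood in air rats. Scd, the stearoyl-CoA desaturase of fatty acid synthesis, changed by 1.92 ± 0.141 (limma adjusted p = 1.38e-05), with BALF levels of 11.59, 11.82 and 12.26 in silica rats and 9.54, 10.17 and 10.39 in air rats, and a second Scd probe changed by 0.36. Srebf1, a transcription factor of lipid synthesis, changed by 0.87. The lists as wholes were mixed, with 2 higher and 4 lower of 14 lipid handling genes and 4 higher and 2 lower of 16 sterol and fatty acid synthesis genes. All probes had 11% called higher and 11.5% lower.

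Eicosanoid genes included the largest fall. Alox15, the lipoxygenase that oxygenates arachidonic acid at carbon 15, had BALF levels of 8.34, 9.11 and 9.44 in silica rats and 10.58, 11.05 and 11.26 in air rats. Blood stayed at 14.86 to 15.19 in silica rats and 14.96 to 15.13 in air rats. The change was -1.90 ± 0.141 (limma adjusted p = 1.46e-05), and the gap widened to -6.45 in silica rats against -4.69 in air rats, away from blood. Of 8 tested eicosanoid genes 1 was called higher and 4 lower, against 11% and 11.5% of all probes. The others lower were Alox5ap, Alox5 and Tbxas1. Without the 3 rats of dim blood arrays 2 were higher and 2 lower, and under a median shift 0 and 1. Alox5ap, the protein that presents arachidonic acid to 5-lipoxygenase, changed by -0.97 with 0.67 of it from higher blood levels.

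Other large falls lay in genes that BALF cells held above blood. Mfge8, which bridges phagocytes to dying cells, had BALF levels of 9.32, 9.95 and 10.15 in silica rats and 10.66, 11.02 and 11.34 in air rats, and its gap was 1.02 in silica rats against 2.09 in air rats. Tmem176b, a membrane protein of myeloid cells, had a gap of 1.25 in silica rats against 2.53 in air rats, Ccdc80, a secreted matrix protein (Ssg1 in the files), 2.84 in silica rats against 4.33 in air rats, and Serpinb10, a serine protease inhibitor, 3.54 in silica rats against 4.90 in air rats. Blood levels of these 4 genes were alike in silica and air rats to within 0.04, and the changes, between -1.30 and -1.12, were in BALF cells. Ly49s4, of the Ly49 lectin-like receptor family, and Zdhhc2, a palmitoyltransferase, reached parity with blood: their gaps were 0.02 and 0.03 in silica rats against 1.52 and 1.5 in air rats, at blood levels near the dimmest detected probes for Ly49s4. Myo6, an unconventional myosin, had a gap of 0.79 in silica rats against 1.77 in air rats.

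Pf4, platelet factor 4, is abundant in blood and changed away from it. Its BALF levels were 11.57, 11.62 and 12.26 in silica rats and 12.57, 13.002 and 13.08 in air rats, and the change was -1.24 ± 0.174 (limma adjusted p = 0.000483), with a gap of -3.72 in silica rats against -2.27 in air rats. The platelet sum in BALF cells was 3497 to 4911 in silica rats against 5904 to 8307 in air rats. This sum includes Pf4 and is not separate evidence, and 6 of its 11 markers were detected on no BALF array. Of the 4 tested platelet markers Pf4 was the only one called, and their median change was 0.04. Red cell markers in BALF cells varied widely between rats, with sums of 6698 to 19159 in silica rats and 7739 to 47164 in air rats. Hbb and Hba-a2, the globin genes, had changes of -1.25 and -1.17 that did not pass (limma adjusted p = 0.267 and 0.347), and Epb41, a protein of the red cell membrane skeleton that other cells also make, was the erythroid list member called, at 0.39. The part of blood carried into the lavage in these results was not tested.

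Several genes that blood held at least 2 log2 units above BALF cells in air rats came close to it in silica rats. Besides RT1-Da, the closest were Ninj1, an adhesion protein, with a gap of -0.66 in silica rats against -2.07 in air rats, Ly6e, a small surface protein, with -0.72 in silica rats against -2.23 in air rats, and Cd81, a tetraspanin, with -0.77 in silica rats against -2.50 in air rats. Ly6e had BALF levels of 8.98, 9.66 and 9.84 in silica rats and 7.43, 7.45 and 7.53 in air rats, and changed by 1.99 ± 0.160 (limma adjusted p = 1.84e-05). Il1r2, the decoy receptor for interleukin-1, changed by 2.23 ± 0.299 (limma adjusted p = 0.000378), with BALF levels of 9.998, 10.21 and 10.66 in silica rats and 7.44, 7.47 and 7.76 in air rats, and a gap of -1.48 in silica rats against -3.26 in air rats. Slpi, an inhibitor of neutrophil elastase, changed by 1.36 with higher values in both tissues, 2.21 in BALF cells and 0.84 in blood.

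In the other direction, genes that BALF cells held at least 2 log2 units above blood came closest in Cfd, at 0.78 in silica rats against 2.11 in air rats, followed by Mfge8, by Tm6sf1, a lysosomal membrane protein, at 1.24 in silica rats against 2.22 in air rats, and by Tmem176b. The sign of the gap turned for Plxdc2, a membrane protein, at 0.17 in silica rats against -1.11 in air rats, and for Ddit3, a transcription factor of the endoplasmic reticulum stress response, at 0.01 in silica rats against -1.25 in air rats. It turned the opposite way for Clec4a1, a C-type lectin of myeloid cells, at -0.55 in silica rats against 0.78 in air rats, and for Cklf, a chemokine-like factor, at -0.02 in silica rats against 0.90 in air rats.

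Hopx, which encodes a small homeodomain protein known from alveolar type 1 epithelium and some lymphocytes, was among the largest rises. Its BALF levels were 10.89, 11.31 and 11.45 in silica rats and 7.76, 7.88 and 8.08 in air rats, and its blood levels were 12.51, 12.89 and 13.001 in silica rats and 11.45, 12.48 and 12.78 in air rats. The change was 2.69 ± 0.217 (limma adjusted p = 1.84e-05), with a gap of -2.62 in silica rats against -5.07 in air rats. Hopx was high in blood, where 16 of the 22 epithelial markers were detected on no array. The epithelial sum, which includes Hopx, was 9586 to 11430 in BALF cells of silica rats and 9374 to 18615 in those of air rats. In blood it was 14962 to 18829 in silica rats and 10207 to 16663 in air rats, so that it is a poor measure of epithelium. The cell source of Hopx was not tested. Scgb3a1, a secretoglobin of airway epithelium, changed by -1.09 with BALF levels of 10.81, 11.51 and 11.91 in silica rats and 11.92, 12.38 and 13.41 in air rats.

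Alveolar macrophage genes could be compared with blood only in part, since 8 of the 17 on the array were detected in both tissues. Of these 1 was called higher and 1 lower, against 11% and 11.5% of all probes. Car4, carbonic anhydrase 4, was not well above background in BALF cells of any of the 6 air rats, and was at least 1.16-fold higher in those of silica rats. It met the detection rule in BALF cells only through silica rats, so that its call could hardly have gone the other way. Olr1, a receptor for oxidized lipoprotein, changed by -0.52. Pparg and Fabp4, a nuclear receptor of alveolar macrophages and a fatty acid carrier, were detected on 12 BALF arrays but on 1 blood array each, and Spp1, osteopontin, on 12 and 0, so that their silica response has no difference to test here. S100a9 and Cx3cr1, genes of myeloid cells, were detected on 0 and 1 BALF arrays and on 4 and 5 blood arrays, so that neither was well measured in either tissue.

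The other lists had smaller changes, and their counts stand beside 11% called higher and 11.5% called lower among all probes. The counts of some lists, such as the ribosomal proteins, were not far from these shares. Of 18 cell division genes 7 were called higher and 2 lower, led by Ube2c, a ubiquitin-conjugating enzyme of mitosis, at 0.88, Rrm2, a ribonucleotide reductase subunit, at 0.64 and Ccnb2, a mitotic cyclin, at 0.62, and under a median shift 0 were called. Of 25 lysosomal genes 5 were higher and 1 lower, with Ctsl, a cysteine protease, at 1.36 and BALF levels of 11.32, 11.87 and 12.35 in silica rats and 10.48, 10.68 and 10.93 in air rats, and without the 3 rats of dim blood arrays 4 were higher and 5 lower. Of 19 antioxidant and iron genes 6 were higher and 2 lower, among them Gclc, the rate-limiting enzyme of glutathione synthesis, at 0.59. Slc40a1, the iron exporter ferroportin, was not well above background in BALF cells of air rats and at least 1.64-fold higher in those of silica rats. Like Car4, it met the detection rule in BALF cells only through silica rats. Of 14 myeloid transcription factors 1 was higher and 5 were lower, among them Maf at -0.50, and under a median shift 0 passed. Of 22 oxidative phosphorylation genes 6 were higher and 1 lower, and of 32 ribosomal protein genes 4 and 2, none of which passed under a median shift.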

How the data were processed

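Gene expression in BALF cells and blood of 12 rats was measured on Illumina rat BeadChips; lung arrays were not used here. Per the file headers, the deposited tables hold, for each array, the probe intensity, not normalized, and a detection p-value. The authors' own processed values, deposited as a separate table, lie on a log2 scale. BeadStudio, lumi and limma are named, with no version, in the submitters' processing notes. No slide or scan date was found in the sources used here.

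The intensities were normalized in R 4.3.3 by the neqc function (limma 3.58.1; background level inferred from the detection p-values, offset 16, quantile normalization, log2), within each tissue for differences and over the 24 arrays together for gaps and likeness. Silica and air were compared on each rat's BALF minus blood value with lmFit and eBayes, without a replicate block, two-sided, Benjamini-Hochberg adjusted over the 7180 probes detected (p under 0.05) on at least 6 of 12 arrays in both tissues. Likeness was tested by exact permutation over all 924 assignments of 12 rats. The labels number the replicates, but same-numbered silica and air rats did not deviate together (correlations of -0.286 to 0.309), so the numbers were not taken to pair them. Arrays of the same group correlated at 0.983 or more, and 0 pairs were identical. Number of arrays limits the precision, and changes of dim probes are compressed on this log2 scale. A probe not detected on any array of a group is given as a bound against the dimmest detected probe of each array. The script for the difference was tested on simulated data.

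Symbols were updated through RefSeq (GRCr8): 9918 probes matched a current symbol, 4817 a synonym, 6940 kept the file's symbol and 117 had none. Lists, 32 in all, take for each gene the probe of highest mean intensity. Named are the 12 largest rises and 12 largest falls of the difference without overlap of the groups, up to 3 called members of each list, the 4 called genes of smallest silica gap in each direction (air gap of at least 2), the 4 largest changes of gap sign in each direction, the 5 probes of smallest p in blood and 14 chosen genes, of which Marco was not found under that name; other list members are given as values and were chosen after their values were seen. Some genes that these rules pick are not reported here, but stay in the counts of their lists. The members and lists were chosen with earlier results of these data known.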

Additional observations from a re-analysis of the deposited data

Results flagged for a closer look

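The silica effect differed between BALF cells and blood, by the test of the difference itself, for 1620 probes. Single rats also stood apart within their group of 6 in 20 of the 186 groups of values examined, by a gap to the nearest other rat too large for Dixon's test at the 95% level, which chance gives in about 1 in 20 groups. All values here are BALF minus blood differences on the log2 scale.

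Silica replicate 6 stood above the other silica rats in 7 genes. It had 2.49 for RT1-Db1 (others -0.54 to 0.24), 2.33 for RT1-Da (others 0.06 to 0.65), 2.20 for RT1-Ba (others -0.60 to 0.25) and 1.03 for Cd74 (others -1.62 to -0.90). It also had 2.26 for Ubd (others 0.47 to 0.84) and 3.03 for Cfd (others 2.28 to 2.45), and 3.85 for Ndufa10 (others 3.62 to 3.67), a subunit of respiratory complex I. This rat's blood array was the dimmest of its group, and its part in these values was not tested.

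Silica replicate 3 stood above the other silica rats at 0.77 for Il1r2 and 7.01 for Ctsk. Silica replicate 5 did so at 4.08 for Scd and 0.17 for Cst3, and silica replicate 2 at -1.52 for Ndufa1. For Hopx and Alox15 the rat that stood apart was the lowest silica rat, at -2.01 and -6.52. The highest silica rats of these genes lay near the next, replicate 3 at -1.46 for Hopx and replicate 2 at -5.73 for Alox15. Among air rats, replicate 1 stood above the others at 0.78 for Plxdc2, and replicate 3 at 0.0943 for Ubd. For Cd74, Ccr2, Apoe and Dgka the air rat that stood apart was the lowest, at -3.68, 0.11, -1.54 and -2.28. The highest air rats of these genes did not stand apart by this test. They were replicate 1 at -2.97 for Cd74, replicate 5 at 0.19 for Ccr2, and replicate 6 at 0.98 for Apoe and -1.80 for Dgka.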

How the results depend on the processing

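The count of 1620 called probes (792 higher, 828 lower) moved most with the scaling. A median shift gave 54 (29 and 25), a shift to the median of detected probes 458 (164 and 294), and a minimum of 1.5-fold 244 (126 and 118); every other setting stayed within 1.5 times of each count, and leaving out each rat gave 1349 to 1607 (672 to 765 higher, 677 to 848 lower). Of the 1620 probes, 53 were still called under the median shift and 1170 without the 3 rats of dim blood arrays. BALF cells alone had 482 calls under a median shift in place of 3187, and 2778 to 3197 without single rats; blood alone had 0 to 1, the 1 without air replicate 2. Of the 85 named genes called, 22 passed under the median shift and 63 under the shift to detected probes. The median shift reversed Rpl9 (-0.0229), Rps18 (-0.0403), Uqcrfs1 (-0.10), Dgka (-0.12) and Ndufa10 (-0.12), the shift to detected probes reversed Dgka (-0.00648) and Ndufa10 (-0.00393), and without background correction Cxcr2 (0.71) turned. The causes were not tested.

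The likeness of BALF cells to mean blood kept an unadjusted p under 0.05 throughout (0.0134 to 0.0149 without single rats). Under a median shift its groups overlapped (0.0148, exact permutation p = 0.0195). With the replicate block its exact permutation p was 0.03125, the smallest possible there. The p-values of these settings were not adjusted over the 4 measures, so that the adjusted call holds for the main setting only. Own-blood likeness did not pass after adjustment over the 4 measures (adjusted p = 0.0736); its unadjusted p was also above 0.05 under a median shift (0.0399, exact permutation p = 0.0996), with detection on all 12 arrays (0.0208), or without silica replicate 1, 2, 3 or 5 or air replicate 1 or 2 (all single omissions 0.0169 to 0.0260, exact permutation p = 0.013 to 0.0844). With the replicate block it was 0.0221 (exact permutation p = 0.125), and the block gave 1478 calls; it changed no other count by over 1.5 times. The mean absolute gap had an unadjusted p under 0.05 when each tissue was normalized by itself (-0.0226) and with the authors' processed values (-0.0300), and ranged from -0.0355 to -0.0166 without single rats; the likeness of blood to mean BALF cells ranged from 0.00185 to 0.0125. Dim blood arrays limit the depth of the comparison.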

Other observations

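The 5 probes of smallest p in blood alone were those of Mrps30, a mitochondrial ribosomal protein, Ccr6, Dgka, a diacylglycerol kinase of T cells, Rnf125, a ubiquitin ligase, and Ndufa10. Their blood changes were -0.20, -0.48, -0.40, -0.28 and -0.13, and none had an adjusted p under 0.05 in limma's test. Mrps30, Ccr6 and Rnf125 had a called change of the difference, at 0.29, 0.79 and 0.45, and Dgka and Ndufa10, at 0.26 and 0.17, did not pass.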
